A study of Mus musculus with 9 samples.

Results

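The mitotic spindle and G2/M genes of mouse embryonic stem cells were examined in libraries with and without the Hippo pathway effectors YAP and TAZ. The set holds 43 named genes of the deposited table's 38940 genes, found by gene name, and takes in the mitotic cyclins and the kinases, motors, kinetochore proteins and cytokinesis proteins that carry a cell through division. Each was read in 9 RNA-seq libraries, 3 per group. By the submitters' descriptions, Yap/Taz double KO cells carried deletions of both genes (Yap ∆/∆ Taz ∆/∆), Taz KO cells carried floxed Yap and deleted Taz (Yap f/f Taz ∆/∆), and control cells carried both floxed genes (Yap f/f Taz f/f). The genotype field of the double KO libraries names the Taz KO genotype instead, so the grouping follows titles and descriptions, which match each other. All cells grew in 2i/Lif, a serum-free N2B27 medium with the MEK inhibitor PD0325901 (0.4 µM), the GSK3 inhibitor CHIR99021 (3 µM) and Lif (4 ng/ml), on fibronectin. A Cre-ERT2 recombinase driven by the ubiquitous CAG promoter was brought in by piggyBac transposition and switched on with 4-OHT, a tamoxifen metabolite, at 500 nM. The labels do not say whether control cells received 4-OHT, how many clones were used or whether replicates were separate cultures, and the spread between replicates, on which all p-values rest, may therefore be technical.

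Entry into mitosis is driven by cyclin-dependent kinase 1 (Cdk1) bound to cyclins A and B. The kinase Wee1 holds Cdk1 inactive and the Cdc25 phosphatases release it. Aurora and Polo kinases then build the spindle, kinesins and microtubule-binding proteins shape it, and kinetochores attach chromosomes to it. The spindle checkpoint restrains Cdc20 until every kinetochore is attached, after which the anaphase-promoting complex destroys cyclin B and securin, separase cuts cohesin and cytokinesis follows. Most of these genes are transcribed periodically, with a peak in G2 and mitosis, under the DREAM and B-Myb/FoxM1 complexes, which act at CHR elements and CCAAT boxes near the transcription start. Embryonic stem cells divide fast and spend little time in G1.

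Values are the authors' deposited FPKM, fragments per kilobase of gene scaled for depth, so levels of different genes are compared per length. The library totals recovered from them came to 19.1 M to 24.0 M reads per library, and each of the 43 genes had between 377 and 30880 reads in every library. Mean levels over the 9 libraries ran between 6.95 FPKM (Cdc25b) and 127 FPKM (Top2a) with a median of 35.6 FPKM, against 9.20 FPKM for the median of the 11674 genes tested, and 42 of the 43 lay above that median. Yap1 averaged 4.25 ± 0.334 FPKM in double KO, 18.3 ± 0.346 FPKM in Taz KO and 18.4 ± 0.573 FPKM in control libraries (SD, n = 3). Yap1 RNA was thus lower in double KO, and its summed reads do not show whether the deletion was complete. Wwtr1 averaged 13.9 ± 0.772 FPKM in double KO, 10.8 ± 1.58 FPKM in Taz KO and 12.1 ± 0.847 FPKM in control libraries; this gene encodes TAZ, and its summed reads do not show whether an exon is lost, so they do not check the deletion of Taz. Naive stem cell markers were high throughout, with 10 genes summing to 2412 to 2717 FPKM in double KO, 4000 to 4322 FPKM in Taz KO and 4778 to 5126 FPKM in control libraries. Of the 10, 5 fell and 1 rose in double KO against control, where 12.9% of all tested genes were lower and 12.4% higher. Their log2 fold changes lay between -1.52 and 0.70 with a median of -0.25, so the sums do not stand for each gene. After quantile normalization 2 fell and 1 rose, with a median of -0.04. The 9 fibroblast markers summed to 3.86 to 11.3, 2.23 to 6.24 and 2.96 to 4.58 FPKM in the same order of groups, and Postn, Dcn and Lum were at 0 in all libraries. The 3 neuroectoderm markers summed to 12.2 to 14.8, 4.54 to 6.10 and 3.91 to 4.71 FPKM, most of it Nes, which rose in double KO. Those of trophectoderm, primitive endoderm and mesoderm summed to at most 12.3 FPKM in any library. The part of these markers in the results below was not tested.

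The 43 genes, which were chosen with earlier results of these data known, were lower as a set in double KO cells than in control cells. Of the 43, 11 fell, 1 rose and 31 did not pass the test in double KO against control (limma on log2(FPKM + 0.5), adjusted p under 0.05). The falls were Ccnb2, Aurka, Bub1b, Ube2c, Pttg1, Cdca8, Tpx2, Nusap1, Hmmr, Ect2 and Top2a, and the rise was Cdc25b. This is 25.6% of the set lower and 2.33% higher, against 12.9% lower and 12.4% higher among all genes tested (25.3% in either direction). The median log2 fold change of the 43 was -0.25, against -0.02 for all genes tested. Of the 43, 37 were below 0 (34 with an equal sum of FPKM and 35 after quantile normalization). The shares of all tested genes below 0 in these fits were not counted. The values of the double KO and control libraries did not overlap for 26 genes that were lower and 2 that were higher, where 23.8% and 21.7% of all tested genes did so. With the replicate number as a block, since libraries of the same number deviated together, 32 of the 43 fell and 3 rose, against 28.1% and 24.2% of all tested genes (52.4% in either direction); adjusted p-values of that fit are given as blocked where they change a call. The columns are scaled to the typical gene. Scaled instead to an equal sum of FPKM, 12 fell and 4 rose with a median of -0.17. After quantile normalization 11 fell and 3 rose with a median of -0.13. These scalings raised the median over all tested genes by 0.07 and 0.01, and called 3266 and 3252 of all tested genes, against 2948. In bulk RNA, fewer cells in G2 and mitosis and less of these transcripts per cell cannot be told apart.

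**Figure D1:**
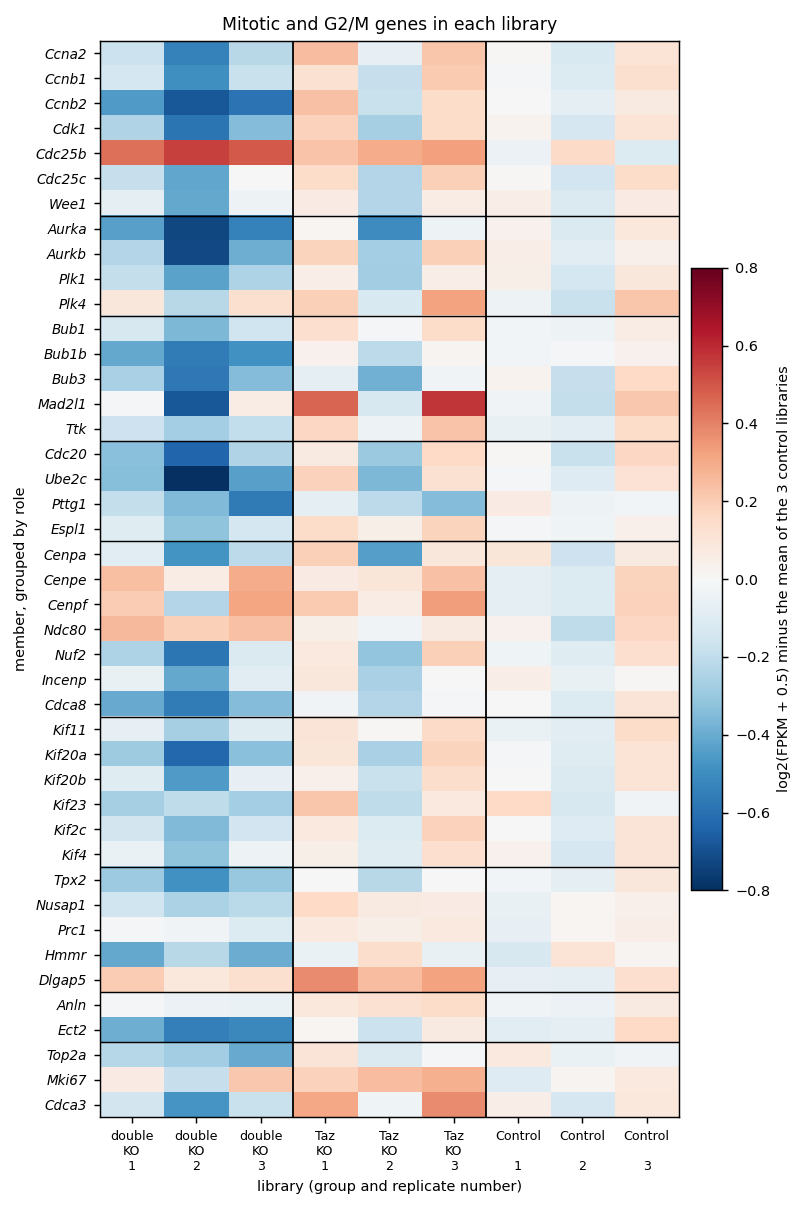
Level of each of the 43 genes (down the page, grouped by role) in each of the 9 libraries (across), as log2(FPKM + 0.5) minus the mean of the 3 control libraries, from blue (lower) to red (higher). Double KO libraries are mostly blue, with Cdc25b red in all 3, and library 2 is the lowest of each group in many genes.

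The promoters of these genes share short elements that the choice of genes did not use. RefSeq windows of 300 bases, with 250 before and 50 after the annotated start on GRCm38.p6, were matched by symbol for 35 of the 43 genes (38 windows) and searched on both strands. The CHR letters TTTGAA were in 29 of 38 windows (76.3%), against 17.9% of 32851 mouse windows, and its variant TTTAAA in 9 (23.7%), against 13.2%. One or the other started between 50 bases before and 30 bases after the start in 26 windows (68.4%), against 7.42% of all windows. The CCAAT box was in 29 windows (76.3%), against 37.4%, and at several places in 20 (52.6%), against 11.7%. GGAATG, the core of the motif of TEAD factors, the DNA-binding partners of YAP and TAZ, were in 3 windows (7.89%), against 14.7%. These shares are descriptions of letters, not of bound sites. Of the genes that fell in double KO, 8 hold CHR letters in their window, and the promoters of the 6 with the smallest adjusted p are shown to let the letters be seen in place. Capitals mark the CHR letters, their variant and the CCAAT box, read on either strand (a box on the other strand reads ATTGG), and in Cdca8 a CHR match overlaps a CCAAT match. The windows are chr9:70421505-70421804, chr2:172370521-172370820, chr4:124936868-124937167, chr11:40733388-40733687 and chr3:27153829-27154128 on the minus strand for Ccnb2, Aurka, Cdca8, Hmmr and Ect2, and chr2:118597961-118598260 on the plus strand for Bub1b.
Ccnb2: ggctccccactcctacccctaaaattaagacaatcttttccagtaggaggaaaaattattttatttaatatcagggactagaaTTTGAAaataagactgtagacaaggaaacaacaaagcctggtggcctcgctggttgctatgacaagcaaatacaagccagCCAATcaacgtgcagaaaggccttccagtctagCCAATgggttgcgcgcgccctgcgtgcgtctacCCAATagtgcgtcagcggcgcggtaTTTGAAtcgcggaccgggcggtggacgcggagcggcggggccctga
Aurka: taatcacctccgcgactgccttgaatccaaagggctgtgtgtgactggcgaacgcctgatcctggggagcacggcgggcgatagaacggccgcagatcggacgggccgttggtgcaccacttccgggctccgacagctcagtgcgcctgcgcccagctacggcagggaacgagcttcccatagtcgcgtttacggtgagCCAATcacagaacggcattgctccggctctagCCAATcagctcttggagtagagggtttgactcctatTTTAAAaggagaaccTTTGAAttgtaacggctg
Bub1b: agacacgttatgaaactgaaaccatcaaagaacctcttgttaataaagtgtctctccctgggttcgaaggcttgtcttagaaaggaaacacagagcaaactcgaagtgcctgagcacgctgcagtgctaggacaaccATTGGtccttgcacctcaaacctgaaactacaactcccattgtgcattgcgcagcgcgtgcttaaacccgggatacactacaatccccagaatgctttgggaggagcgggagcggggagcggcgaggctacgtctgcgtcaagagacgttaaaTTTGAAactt
Cdca8: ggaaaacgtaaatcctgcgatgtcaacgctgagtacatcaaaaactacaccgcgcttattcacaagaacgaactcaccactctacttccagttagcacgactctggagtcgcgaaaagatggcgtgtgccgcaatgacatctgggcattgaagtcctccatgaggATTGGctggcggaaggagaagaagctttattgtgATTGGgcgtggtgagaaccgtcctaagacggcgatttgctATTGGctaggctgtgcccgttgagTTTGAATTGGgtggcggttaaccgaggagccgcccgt
Hmmr: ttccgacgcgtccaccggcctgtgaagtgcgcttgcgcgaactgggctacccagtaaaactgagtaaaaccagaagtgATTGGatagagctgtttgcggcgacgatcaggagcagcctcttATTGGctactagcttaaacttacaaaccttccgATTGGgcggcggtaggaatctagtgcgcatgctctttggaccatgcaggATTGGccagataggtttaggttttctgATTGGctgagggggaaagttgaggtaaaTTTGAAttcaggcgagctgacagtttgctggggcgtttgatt
Ect2: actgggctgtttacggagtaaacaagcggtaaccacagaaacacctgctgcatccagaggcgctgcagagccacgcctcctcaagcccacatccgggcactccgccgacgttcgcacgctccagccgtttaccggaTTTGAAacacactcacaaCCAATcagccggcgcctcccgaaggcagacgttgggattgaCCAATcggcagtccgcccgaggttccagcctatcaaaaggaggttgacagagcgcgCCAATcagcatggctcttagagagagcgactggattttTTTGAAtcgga

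**Figure D2:**
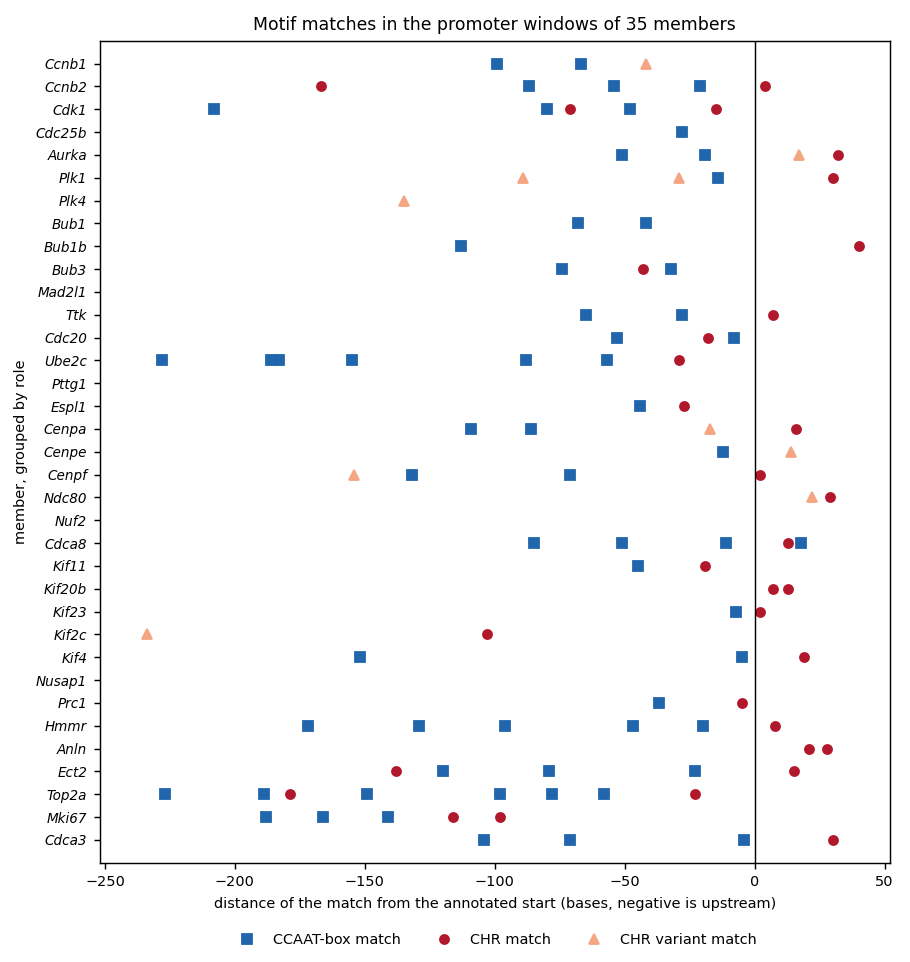
Positions of CHR matches (circles), CHR variant matches (triangles) and CCAAT-box matches (squares) in a single window for each of 35 genes, in bases from the annotated start. For Ect2 the window drawn is chr3:27153805-27154104, with CHR matches at -138 and 15. In the Ect2 window printed above, the same matches lie at -114 and 39. Most CHR matches sit within 50 bases of the start and most CCAAT matches lie upstream of them.

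Genes with and without CHR letters had similar medians. The 29 genes with TTTGAA or TTTAAA had a median log2 fold change of -0.26 in double KO against control and 8 of them fell, while the 6 without (Bub1, Cdc25b, Mad2l1, Nuf2, Nusap1 and Pttg1) had a median of -0.21 and 2 fell. For CCAAT the medians were -0.27 for 26 genes with it and -0.21 for 9 without. Neither difference was tested. Cdc25b, which rose, had a CCAAT match and no CHR letters in its window.

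Among the cyclins, Cdk1 and its switches, 1 of 7 fell and 1 rose against control, with 6 falls and 1 rise under the replicate block. Of all tested genes 12.9% were lower and 12.4% higher, and 28.1% and 24.2% were so under the block. Ccnb2 encodes cyclin B2, a mitotic activator of Cdk1 (ENSMUSG00000032218, chromosome 9, 70407692 to 70421547, minus strand on GRCm38). Ccnb2 was at 61.99, 52.8 and 56.3 FPKM in double KO libraries 1, 2 and 3, against 99.8, 74.9 and 93.9 FPKM in Taz KO and 84.8, 80.9 and 89.2 FPKM in control libraries. Both other groups lay above it throughout. Its log2 fold change was -0.57 (standard error 0.11, adjusted p = 0.00827) against control, where it kept 67.1% of the control level, and -0.64 (standard error 0.11, adjusted p = 0.0105) against Taz KO. Ccnb1 was at 60.4, 47.3 and 58.9 FPKM in double KO libraries 1, 2 and 3, against 72.5, 58.6 and 76.9 FPKM in Taz KO and 65.9, 61.7 and 72.7 FPKM in control libraries. This gene of cyclin B1 was lowest in the 3 double KO libraries against control, but Taz KO 2 lay inside the double KO range. Its log2 fold change against control was -0.27 (standard error 0.13, adjusted p = 0.166; blocked 0.00636). Ccna2 was at 52.2, 40.4 and 50.4 FPKM in double KO libraries 1, 2 and 3, against 69.9, 56.2 and 68.7 FPKM in Taz KO and 59.4, 54.1 and 63.5 FPKM in control libraries. All double KO values of this cyclin A2 gene, whose product acts in S phase and G2, were below those of the other groups. It fell against Taz KO, with a log2 fold change of -0.44 (standard error 0.13, adjusted p = 0.0487), and against control the value was -0.31 (standard error 0.13, adjusted p = 0.102; blocked 0.00217).

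Cdk1 was at 36.6, 28.8 and 34.1 FPKM in double KO libraries 1, 2 and 3, against 49.5, 36.02 and 48.2 FPKM in Taz KO and 44.3, 39.5 and 46.9 FPKM in control libraries. Double KO lay below control throughout and Taz KO 2 lay among the double KO values. The log2 fold change against control was -0.39 (standard error 0.14, adjusted p = 0.0726; blocked 0.00146). Wee1 was at 32.1, 25.4 and 32.9 FPKM in double KO libraries 1, 2 and 3, against 35.4, 28.7 and 35.2 FPKM in Taz KO and 35.1, 31.1 and 35.4 FPKM in control libraries. The ranges of this inhibitor of Cdk1 overlapped, with a log2 fold change against control of -0.17 (standard error 0.12, adjusted p = 0.335; blocked 0.0225). Cdc25b was the only gene of the set that rose against control in the test without the block. Its product, a phosphatase that activates Cdk1 at the entry into mitosis, belongs to the Cdc25 family (ENSMUSG00000027330, chromosome 2, 131186949 to 131198497, plus strand). Cdc25b was at 7.86, 8.49 and 8.16 FPKM in double KO libraries 1, 2 and 3, against 6.71, 7.06 and 7.24 FPKM in Taz KO and 5.47, 6.35 and 5.21 FPKM in control libraries. Every double KO value exceeded every Taz KO value, and every Taz KO value exceeded every control value. The log2 fold change was 0.49 (standard error 0.0842, adjusted p = 0.00404) for double KO against control, 0.21 (standard error 0.0842, adjusted p = 0.132; blocked 0.0377) for double KO against Taz KO and 0.28 (standard error 0.0842, adjusted p = 0.161; blocked 0.0333) for Taz KO against control. Cdc25c, whose product has the same activity, was below 0 without passing the test, at -0.20 (standard error 0.15, adjusted p = 0.346; blocked 0.0223) against control. Cdc25b had the lowest level of the set, and an exon of it overlaps Spef1 on the opposite strand in the GENCODE M21 annotation.

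**Figure D3:**
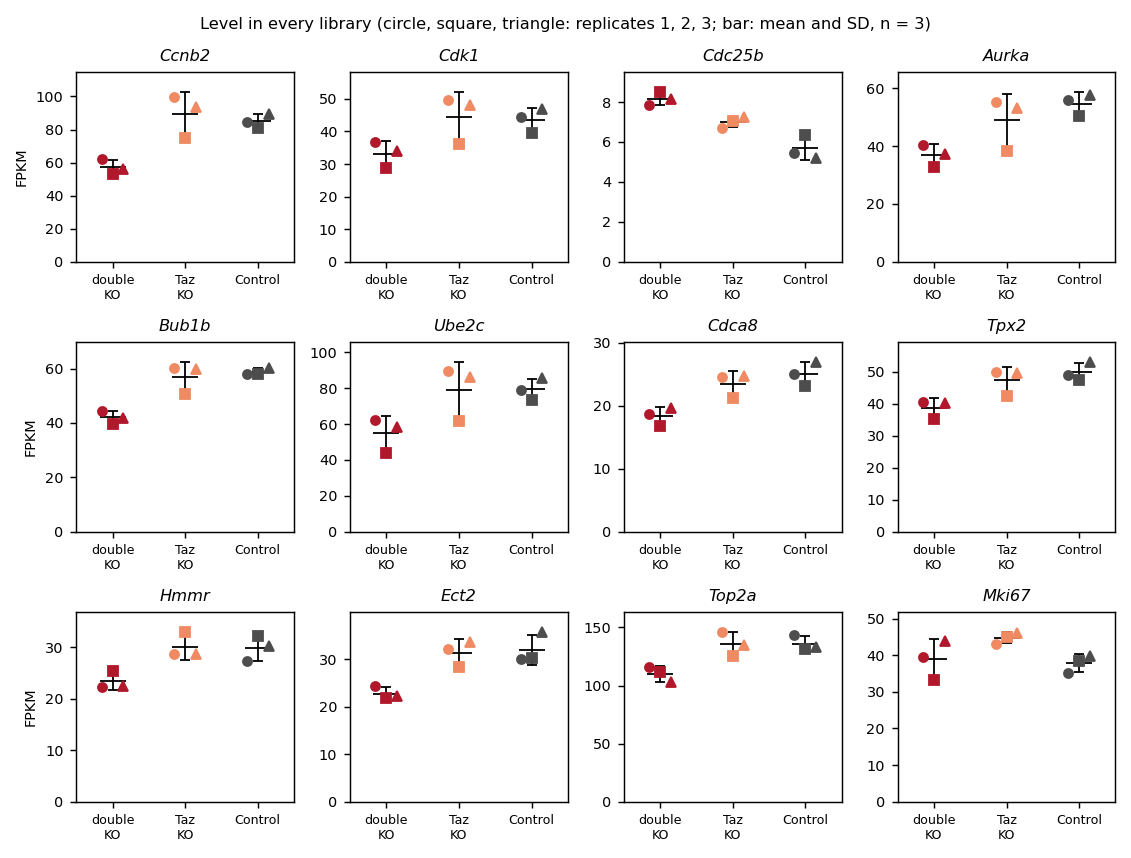
FPKM of 12 of the genes in each library, by group, with the mean and SD of 3 libraries. Ccnb2, Bub1b, Cdca8 and Ect2 are lower in all double KO libraries than in all others, Cdc25b is higher, and the Mki67 ranges of double KO and control overlap.

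Of the 4 mitotic kinases, 1 fell against control and 3 fell under the block, where 12.9% and 28.1% of all tested genes did. Aurka encodes Aurora A, which works at centrosomes and spindle poles (ENSMUSG00000027496, chromosome 2, 172356190 to 172370535, minus strand). Aurka was at 40.3, 32.8 and 37.3 FPKM in double KO libraries 1, 2 and 3, against 55.2, 38.3 and 53.1 FPKM in Taz KO and 55.99, 50.3 and 57.8 FPKM in control libraries. Double KO was below control in every library, and Taz KO 2 sat within the double KO range. The log2 fold change was -0.57 (standard error 0.14, adjusted p = 0.0219) against control and -0.39 (standard error 0.14, adjusted p = 0.106; blocked 0.00461) against Taz KO. Aurkb was at 25.7, 18.2 and 23.05 FPKM in double KO libraries 1, 2 and 3, against 34.4, 25.04 and 34.6 FPKM in Taz KO and 31.5, 28.4 and 31.1 FPKM in control libraries. The Aurora B gene, the catalytic subunit of the chromosomal passenger complex, was likewise below control in all 3 double KO libraries, at -0.45 (standard error 0.16, adjusted p = 0.0651; blocked 0.00193) against control. Plk1 was at 64.1, 54.2 and 61.5 FPKM in double KO libraries 1, 2 and 3, against 75.9, 60.1 and 75.9 FPKM in Taz KO and 75.6, 66.4 and 77.9 FPKM in control libraries. The gene of Polo-like kinase 1 was also below control in all 3 double KO libraries, with a log2 fold change of -0.29 (standard error 0.12, adjusted p = 0.101; blocked 0.00188) against control. Plk4, the kinase of centriole duplication, had a log2 fold change of 0.00 (standard error 0.15, adjusted p = 0.999) against control with an interval of -0.34 to 0.34, and turned positive with columns scaled to an equal sum.

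In the spindle checkpoint, 1 of 5 genes fell against control and 4 fell under the block, against 12.9% and 28.1% of all tested genes. Bub1b encodes BubR1, a component of the inhibitor that holds back Cdc20 (ENSMUSG00000040084, chromosome 2, 118598211 to 118641591, plus strand). Bub1b was at 44.2, 39.8 and 41.99 FPKM in double KO libraries 1, 2 and 3, against 60.3, 50.7 and 59.8 FPKM in Taz KO and 57.99, 58.2 and 60.3 FPKM in control libraries. The double KO libraries were below all others and close together. Its log2 fold change was -0.48 (standard error 0.0852, adjusted p = 0.00472) against control and -0.43 (standard error 0.0852, adjusted p = 0.0144) against Taz KO, and its level was 71.4% of control. Bub1 was at 41.3, 35.1 and 40.4 FPKM in double KO libraries 1, 2 and 3, against 49.5, 44.6 and 49.98 FPKM in Taz KO and 44.5, 43.8 and 47.1 FPKM in control libraries. This checkpoint kinase gene was lowest in the 3 double KO libraries, with a log2 fold change of -0.30 (standard error 0.0855, adjusted p = 0.0489) against Taz KO and a log2 fold change of -0.21 (standard error 0.0855, adjusted p = 0.0981; blocked 0.00901) against control. The log2 fold changes against control were -0.39 (standard error 0.13, adjusted p = 0.0602; blocked 0.000682) for Bub3, which binds both of these kinases, and -0.21 (standard error 0.0965, adjusted p = 0.141; blocked 0.0206) for Ttk, the MPS1 kinase that starts checkpoint signalling. Mad2l1, which encodes MAD2, lay between 31.8 and 53.3 FPKM in double KO, between 46.8 and 76.2 FPKM in Taz KO and between 44.7 and 59.6 FPKM in control libraries, and its log2 fold change against control was -0.21 (standard error 0.24, adjusted p = 0.543).

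The 4 genes of anaphase and its ubiquitin ligase had 2 falls against control and 4 under the block. Among all tested genes 12.9% and 28.1% fell. Ube2c is the ubiquitin-conjugating enzyme of the anaphase-promoting complex (ENSMUSG00000001403, chromosome 2, 164769898 to 164778822, plus strand). Ube2c was at 62.3, 44.1 and 58.6 FPKM in double KO libraries 1, 2 and 3, against 89.8, 61.6 and 86.05 FPKM in Taz KO and 78.8, 73.5 and 85.6 FPKM in control libraries. Control was above double KO throughout, while Taz KO 2 lay just below double KO 1. The log2 fold change was -0.54 (standard error 0.17, adjusted p = 0.048) against control and -0.52 (standard error 0.17, adjusted p = 0.0769; blocked 0.00227) against Taz KO. Pttg1 was at 27.3, 24.3 and 20.9 FPKM in double KO libraries 1, 2 and 3, against 29.7, 26.9 and 24.4 FPKM in Taz KO and 32.6, 30.3 and 30.7 FPKM in control libraries. Securin, its product, holds separase inactive. Double KO and control did not overlap, and the log2 fold change was -0.37 (standard error 0.11, adjusted p = 0.0382) against control and -0.16 (standard error 0.11, adjusted p = 0.356) against Taz KO. Cdc20 was at 83.6, 67.8 and 89.1 FPKM in double KO libraries 1, 2 and 3, against 111, 85.9 and 118 FPKM in Taz KO and 106, 93.3 and 119 FPKM in control libraries. Every double KO value of this activator of the ligase was below every control value, with -0.40 (standard error 0.15, adjusted p = 0.0822; blocked 0.000408) against control. Espl1 was at 30.7, 26.2 and 29.7 FPKM in double KO libraries 1, 2 and 3, against 36.5, 34.02 and 37.2 FPKM in Taz KO and 32.7, 32.1 and 33.9 FPKM in control libraries. Separase, which this gene encodes, was lowest in all 3 double KO libraries and fell against Taz KO, at -0.31 (standard error 0.0794, adjusted p = 0.0339), while against control the value was -0.19 (standard error 0.0794, adjusted p = 0.114; blocked 0.0155).

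Centromere and kinetochore genes pointed both ways, with 4 log2 fold changes below 0 and 3 above. Of 7, 1 fell and none rose against control, with 4 falls and 2 rises under the block. Among all tested genes 12.9% fell and 12.4% rose, with 28.1% and 24.2% under the block. Cdca8 encodes borealin, a chromosomal passenger protein that targets Aurora B to centromeres (ENSMUSG00000028873, chromosome 4, 124918465 to 124939311, minus strand). Cdca8 was at 18.8, 16.8 and 19.6 FPKM in double KO libraries 1, 2 and 3, against 24.6, 21.2 and 24.8 FPKM in Taz KO and 25.05, 23.2 and 26.9 FPKM in control libraries. The double KO libraries were the 3 lowest of the 9, and the log2 fold changes were -0.44 (standard error 0.0953, adjusted p = 0.012) against control and -0.34 (standard error 0.0953, adjusted p = 0.0452) against Taz KO. The log2 fold changes against control pointed up for the kinetochore genes Ndc80, 0.23 (standard error 0.0959, adjusted p = 0.113; blocked 0.0212), and Cenpe, 0.20 (standard error 0.10, adjusted p = 0.182; blocked 0.0209), and for Cenpf, 0.10 (standard error 0.15, adjusted p = 0.673). For Nuf2, whose product pairs with that of Ndc80 in the NDC80 complex, the value was -0.31 (standard error 0.16, adjusted p = 0.173; blocked 0.00674). Ndc80 was at 29.7, 28.3 and 29.2 FPKM in double KO, 25.6, 24.3 and 26.03 FPKM in Taz KO and 25.4, 21.4 and 27.9 FPKM in control libraries. Nuf2 was at 15.5, 12.2 and 17.01 FPKM in double KO libraries 1, 2 and 3, against 19.5, 14.8 and 21.2 FPKM in Taz KO and 18.02, 17.2 and 20.4 FPKM in control libraries. Double KO was thus above control in every library for Ndc80 and below it in every library for Nuf2. Of all tested genes 21.7% were higher and 23.8% lower without overlap. Cenpa, the centromeric histone, was at -0.26 (standard error 0.17, adjusted p = 0.304; blocked 0.0189) and Incenp, the scaffold of the passenger complex, at -0.18 (standard error 0.12, adjusted p = 0.288; blocked 0.0336) against control.

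None of the 6 kinesin genes passed the test against control in either direction, where 25.3% of all tested genes did. All 6 had log2 fold changes below 0, and 5 fell under the block, against 28.1% of all tested genes. The values lay between -0.42 and -0.14. Kif20a, a motor of the central spindle, came nearest at -0.42 (standard error 0.13, adjusted p = 0.0521; blocked 0.00132), with 38.1, 29.97 and 36.8 FPKM in double KO, 49.7, 38.8 and 52.7 FPKM in Taz KO and 46.1, 43.5 and 50.1 FPKM in control libraries. Its double KO values were below all others. Kif23, another motor of the central spindle, was at -0.25 (standard error 0.12, adjusted p = 0.157; blocked 0.0462), and Kif2c, a microtubule depolymerase, at -0.22 (standard error 0.10, adjusted p = 0.147; blocked 0.00613). The other values against control were -0.21 (standard error 0.13, adjusted p = 0.264; blocked 0.0151) for Kif20b, -0.14 (standard error 0.0908, adjusted p = 0.272) for Kif11, the motor that pushes spindle poles apart, and -0.14 (standard error 0.11, adjusted p = 0.363; blocked 0.0411) for the chromokinesin Kif4.

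Spindle assembly genes split. Of 5, 3 were lower in the test against control and 3 under the block, against 12.9% and 28.1% of all tested genes. Tpx2 encodes the activator of Aurora A on spindle microtubules (ENSMUSG00000027469, chromosome 2, 152847964 to 152895321, plus strand). Tpx2 was at 40.6, 35.4 and 40.2 FPKM in double KO libraries 1, 2 and 3, against 49.8, 42.5 and 49.6 FPKM in Taz KO and 49.1, 47.3 and 52.98 FPKM in control libraries. Every double KO value lay under the other groups. The log2 fold change was -0.36 (standard error 0.0929, adjusted p = 0.0233) against control and -0.28 (standard error 0.0929, adjusted p = 0.0762; blocked 0.00336) against Taz KO. Hmmr was at 22.3, 25.5 and 22.6 FPKM in double KO libraries 1, 2 and 3, against 28.7, 32.96 and 28.7 FPKM in Taz KO and 27.3, 32.2 and 30.2 FPKM in control libraries. This spindle pole gene also separated double KO from all other libraries, at -0.34 (standard error 0.0945, adjusted p = 0.0293) against control and -0.35 (standard error 0.0945, adjusted p = 0.0403) against Taz KO. Nusap1 was at 27.5, 25.7 and 26.4 FPKM in double KO libraries 1, 2 and 3, against 34.4, 32.3 and 32.2 FPKM in Taz KO and 29.5, 31.1 and 31.6 FPKM in control libraries. Here the fall was small, -0.21 (standard error 0.0666, adjusted p = 0.0492) against control and -0.31 (standard error 0.0666, adjusted p = 0.0199) against Taz KO, with double KO again below all others. Prc1, which bundles microtubules of the central spindle, was at -0.05 (standard error 0.0649, adjusted p = 0.604) against control and above 0 under both other scalings. Dlgap5, a stabiliser of spindle microtubules, was at 0.14 (standard error 0.0800, adjusted p = 0.228), and it rose with columns scaled to an equal sum.

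For cytokinesis, Ect2 encodes a protein needed to form the cleavage furrow (ENSMUSG00000027699, chromosome 3, 27097222 to 27153878, minus strand). Ect2 was at 24.3, 21.7 and 22.2 FPKM in double KO libraries 1, 2 and 3, against 32.2, 28.3 and 33.6 FPKM in Taz KO and 30.1, 30.3 and 35.7 FPKM in control libraries. The double KO libraries were below all others. Ect2 kept 71.01% of the control level, a log2 fold change of -0.48 (standard error 0.0983, adjusted p = 0.00882) against control and -0.45 (standard error 0.0983, adjusted p = 0.0197) against Taz KO. Anln, the furrow scaffold anillin, had a log2 fold change of -0.03 (standard error 0.0647, adjusted p = 0.723) against control with an interval of -0.18 to 0.11, and was above 0 under both other scalings. Among genes of mitotic chromosomes, Top2a encodes topoisomerase II alpha, which untangles sister chromatids (ENSMUSG00000020914, chromosome 11, 98992943 to 99024189, minus strand). Top2a was at 116, 112 and 103 FPKM in double KO libraries 1, 2 and 3, against 146, 125 and 135 FPKM in Taz KO and 144, 131 and 133 FPKM in control libraries. Double KO held the 3 lowest values. On the log2 scale the change was -0.30 (standard error 0.0846, adjusted p = 0.0303) against control, which quantile normalization reduced to -0.11, and against Taz KO it was -0.29 (standard error 0.0846, adjusted p = 0.0507; blocked 0.00383). Mki67 was at 39.6, 33.3 and 43.98 FPKM in double KO libraries 1, 2 and 3, against 43.1, 45.1 and 46.1 FPKM in Taz KO and 35.3, 38.5 and 39.9 FPKM in control libraries. This gene of the proliferation marker Ki-67 overlapped between double KO and control, at 0.03 (standard error 0.10, adjusted p = 0.849) with an interval of -0.21 to 0.27. Cdca3 was at 31.95, 25.5 and 31.3 FPKM in double KO libraries 1, 2 and 3, against 44.1, 34.5 and 46.3 FPKM in Taz KO and 36.8, 32.2 and 37.6 FPKM in control libraries. Cdca3, a trigger of mitotic entry, fell against Taz KO at -0.48 (standard error 0.13, adjusted p = 0.0452), and its log2 fold change against control was -0.26 (standard error 0.13, adjusted p = 0.174; blocked 0.00411).

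**Figure D4:**
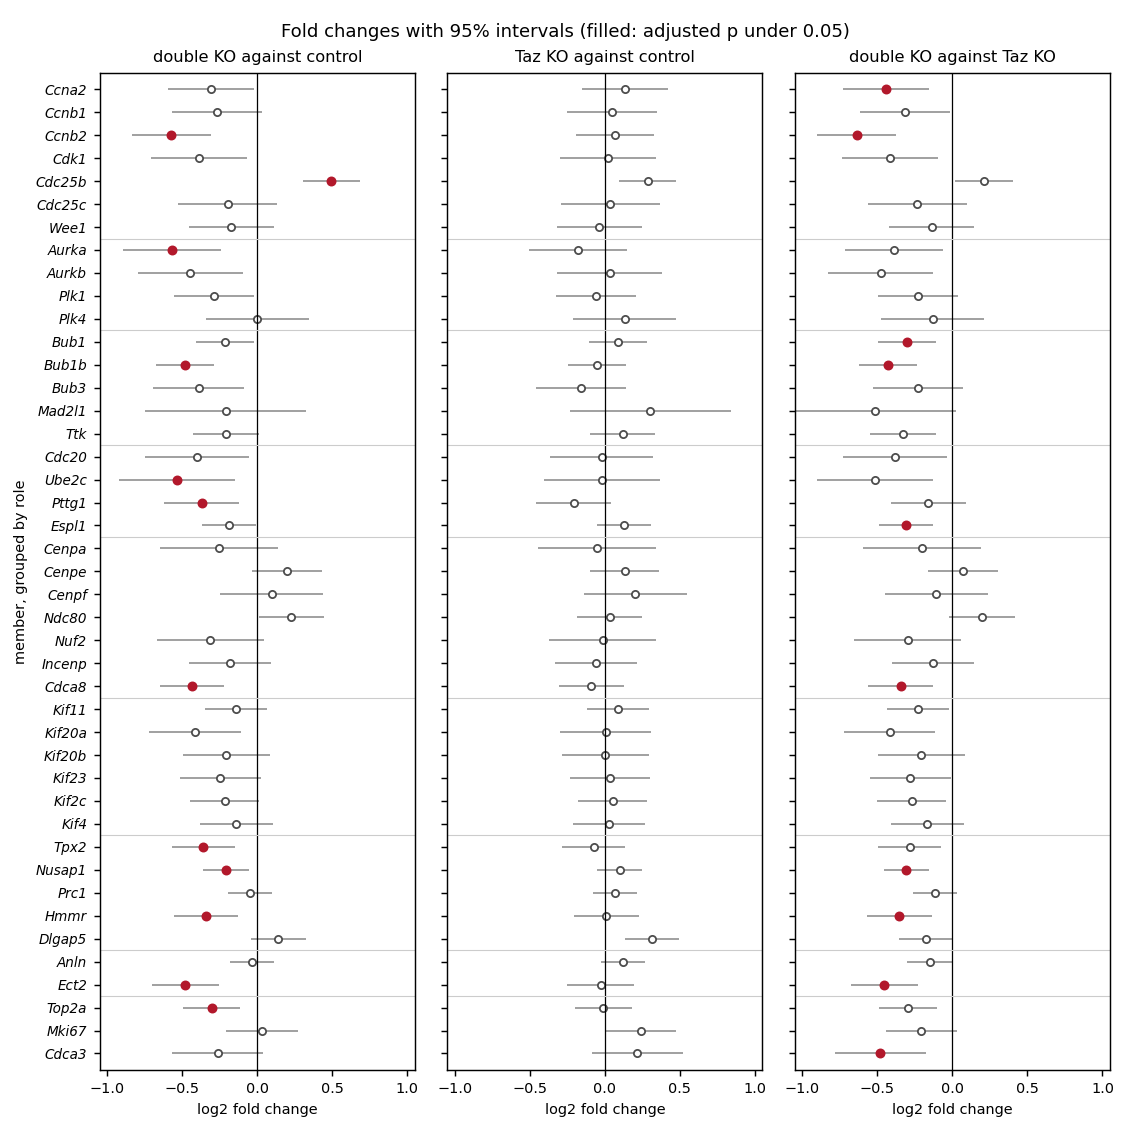
Log2 fold changes of the 43 genes with 95% intervals from the fit to all 9 libraries, in 3 panels for double KO against control, Taz KO against control and double KO against Taz KO. Filled points have an adjusted p under 0.05, 12 in the left panel, none in the middle and 10 on the right.

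The number of calls in double KO against control varied with the libraries used. When each of the 9 libraries was left out in turn, Ccnb2, Cdc25b, Bub1b, Cdca8 and Ect2 stayed called every time. The 11 falls became 7 without double KO 1, 6 without double KO 2, 4 without double KO 3, 17 without Taz KO 2, 5 without control 1, 7 without control 2 and 4 without control 3. Aurka and Tpx2 were lost without double KO 2, double KO 3, control 1 or control 3 (highest adjusted p = 0.0764 and 0.08), and Hmmr without double KO 1, double KO 3, control 2 or control 3 (0.0927). Top2a was lost without double KO 1 or double KO 3 or any control (0.118), and Pttg1 without double KO 2 or double KO 3 or any control (0.128). Ube2c and Nusap1 stayed only without Taz KO 2 (0.136 and 0.138). The set's median stayed between -0.31 and -0.16 in these fits. Calls over all tested genes, 2948 with every library, also varied, between 1510 without control 1 and 3578 without Taz KO 2.

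Taz KO cells were compared with control cells for the loss of TAZ with YAP present, but the groups also differed by chromosome. On chromosome 8 the median tested gene was 0.35 higher in Taz KO and 0.30 higher in double KO than in control (log2). For the 5 tested genes of chromosome Y these medians were -0.71 and -0.74. Of the 84 tested genes higher in Taz KO, 52 lay on chromosome 8. The part of these differences in the comparisons with control was not tested. No gene of the 43 passed the test against control in either direction, where 0.72% of all tested genes were higher and 0.565% lower (1.28% in either direction). At an unadjusted p under 0.05, 3 were higher (Cdc25b, Dlgap5 and Mki67) and none was lower, where 12.8% of all tested genes passed in either direction, and voom on the recovered reads also called none. The median log2 fold change was 0.03, against 0.01 for all genes tested. Taz KO and control values did not overlap for 6 genes that were higher and 1, Pttg1, that was lower, against 10.9% and 7.84% of all tested genes. Under the block Cdc25b, Dlgap5 and Cdca3 rose and none fell, against 7.78% and 4.05%. Dlgap5 was at 24.5, 22.3 and 23.6 FPKM in Taz KO and 17.9, 17.9 and 20.6 FPKM in control libraries, without overlap, with a log2 fold change of 0.32 (standard error 0.0800, adjusted p = 0.11; blocked 0.0156). It lies on chromosome 14 and Cdca3 and Mad2l1 on chromosome 6, where the median tested gene was also higher than in control in Taz KO (0.10 and 0.21) and in double KO (0.11 and 0.19), and its part in these values was not tested. The intervals in Taz KO against control were -0.20 to 0.33 for Ccnb2, -0.50 to 0.15 for Aurka and -0.24 to 0.14 for Bub1b.

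Double KO against Taz KO addressed the loss of YAP in cells that already lacked TAZ, and it uses the same double KO libraries as the comparison with control. Of the 43 genes, 10 fell and none rose, against 7.45% and 6.42% of all tested genes. They were Bub1, Bub1b, Ccna2, Ccnb2, Cdca3, Cdca8, Ect2, Espl1, Hmmr and Nusap1. At an unadjusted p under 0.05, 24 were lower and 1, Cdc25b, was higher, where 30.4% of all tested genes passed in either direction, and voom called 11 falls and no rise. The median was -0.28, against -0.04 for all genes tested, and 40 of 43 were below 0. Groups did not overlap for 19 genes that were lower and 2 that were higher, against 16.5% and 14.1% of all tested genes. Under the block 32 fell and 2, Cdc25b and Ndc80, rose, against 25.6% and 16.8%. Quantile normalization gave a median of -0.18 with 13 falls and 1 rise. It raised the median over all tested genes by 0.03 and called 1762 of them, against 1620. With only the double KO and Taz KO libraries in the fit, 2 falls remained, Ccnb2 and Ect2, and with no filter on low values 5 did. When double KO libraries 1, 2 and 3 were left out in turn the falls numbered 3, 5 and 1. Leaving out Taz KO libraries 1, 2 and 3 gave 1, 23 and 1, and leaving out control libraries 1, 2 and 3 gave 4, 5 and 4. Only Ccnb2 of the 43 stayed called in all 9 of these fits. Calls over all tested genes, 1620 with every library, also varied, between 483 without Taz KO 1 and 2646 without Taz KO 2.

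The level of the set varied with replicate number. Library 2 was the lowest of its group in the median of the 43 genes, at -0.33, -0.06 and -0.04 from each gene's mean over the 9 libraries (log2) in double KO, Taz KO and control. Library 1 stood at -0.08, 0.17 and 0.07 in these groups and library 3 at -0.12, 0.19 and 0.17. For the median tested gene library 2 was also the lowest of each group, at -0.06, -0.02 and -0.02. Summed over the 43 genes, double KO libraries 1, 2 and 3 held 1636, 1377 and 1590 FPKM, Taz KO libraries 2023, 1662 and 2027 FPKM, and control libraries 1867, 1737 and 1977 FPKM. All 3 double KO sums were below the lowest sum of the other groups. Compared within a number, the median difference of double KO minus control was -0.18, -0.31 and -0.26 for numbers 1, 2 and 3, with 33, 38 and 38 of 43 genes below 0, where 49.7%, 54.1% and 51.9% of all tested genes were. Double KO minus Taz KO gave -0.27, -0.26 and -0.31, with 40 genes below 0 in each number, against 53.9%, 57.4% and 54.7% of all tested genes. Taz KO minus control gave 0.11, -0.07 and 0.04, with 4, 24 and 13 genes below 0, against 43.9%, 50.5% and 47.0% of all tested genes. Lower in all 3 numbers were 33 genes in double KO minus control, 39 in double KO minus Taz KO and 4 in Taz KO minus control. The share of all tested genes lower in all 3 numbers was not counted.

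**Figure D5:**
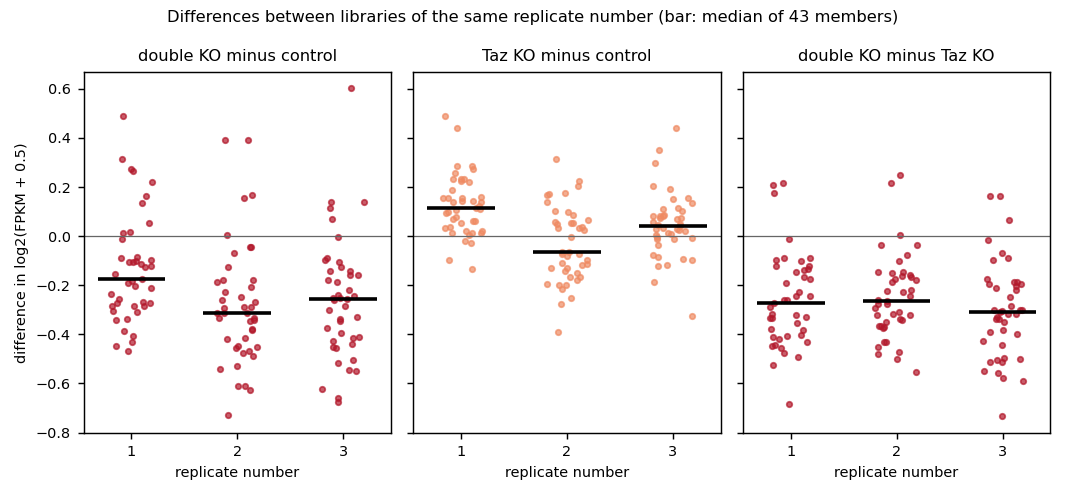
Differences in log2(FPKM + 0.5) between libraries of the same replicate number, 1 point per gene, with a bar at the median of the 43 genes. Medians lie below 0 for every number when double KO is compared with control or with Taz KO, and near 0 on either side when Taz KO is compared with control.

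Shorter and more highly expressed genes of the set tended to have lower log2 fold changes. Over the 43 genes the log2 fold change of double KO against control had a Spearman correlation of 0.54 with exon length and -0.48 with mean FPKM, a description across genes that share their libraries. Over 11050 tested genes with an annotated length the values were 0.19 and -0.22. The long genes Cenpf, Mki67 and Cenpe, with 15433, 10061 and 8620 bases of annotated exons, were above 0, while Anln, Top2a and Espl1, with 9063, 9013 and 8749 bases, were below 0. Ccnb2, Ube2c and Aurka, with 1531, 2600 and 2531 bases, had the 3 lowest values, and Cdc20, Pttg1 and Plk1, with 1868, 2000 and 2199 bases, had values nearer 0. The part of transcript length in the result was not tested. In the GENCODE M21 annotation, exons of 11 of the genes overlap another gene on the opposite strand and those of Top2a a small gene on the same strand. Among genes that changed these are Cdc25b (Spef1), Ube2c (Tnnc2), Nusap1 (Oip5), Cdca8 (9930104L06Rik) and Ccna2 (Exosc9). The strand setting of the counting is not given in the sources used here, so reads from the partner genes cannot be told apart.

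Other genes of the same machinery, 115 tested in 7 lists, had a median nearer 0. In double KO against control 13 fell and 4 rose, where 12.9% of all tested genes were lower and 12.4% higher, so the share that fell was not above that of all genes. Their median log2 fold change was -0.11, with 85 of 115 below 0. With an equal sum of FPKM it was -0.04, with 69 below 0, 16 falls and 6 rises. After quantile normalization it was -0.07, with 77 below 0, 14 falls and 6 rises. The median over all tested genes rose by 0.07 and 0.01 under these scalings. Under the block 47 fell and 11 rose, against 28.1% and 24.2% of all tested genes. Against Taz KO 15 fell and 2 rose, against 7.45% and 6.42%, and in Taz KO against control none passed the test. Cenpm was at 17.2, 12.6 and 16.5 FPKM in double KO, 27.6, 22.2 and 25.7 FPKM in Taz KO and 30.8, 28.9 and 29.2 FPKM in control libraries. Cenpw had 10.98, 8.60 and 9.66 FPKM in double KO, 13.5, 11.9 and 12.6 FPKM in Taz KO and 16.6, 15.3 and 18.5 FPKM in control libraries. Double KO was the lowest group without overlap for both genes, with -0.93 (standard error 0.13, adjusted p = 0.00155) and -0.76 (standard error 0.11, adjusted p = 0.00174) against control. Cenpt rose by 0.31 (standard error 0.0712, adjusted p = 0.0147) and lies on chromosome 8, where the median tested gene was 0.30 higher in double KO than in control. In the outer kinetochore, Spc24 and Spc25, partners of Ndc80 and Nuf2 in the NDC80 complex, changed by -0.71 (standard error 0.18, adjusted p = 0.0219) and -0.39 (standard error 0.0827, adjusted p = 0.0107) on the log2 scale, while Zwint rose by 0.27 (standard error 0.0614, adjusted p = 0.0133).

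Among regulators of G2/M transcription, 3 of 15 fell and 1 rose against control, where 12.9% of all tested genes were lower and 12.4% higher. Their median was -0.04, and 0.03 with an equal sum of FPKM, which raised the median over all tested genes by 0.07. Mybl2, which encodes B-Myb, averaged 158 ± 6.24 FPKM in double KO, 186 ± 8.33 FPKM in Taz KO and 192 ± 3.28 FPKM in control libraries (SD, n = 3), with a log2 fold change of -0.28 (standard error 0.0685, adjusted p = 0.0179) against control. Rbbp4, a subunit of the MuvB core, fell at -0.45 (standard error 0.0963, adjusted p = 0.0112), and Rbl2, the DREAM pocket protein p130, rose at 0.41 (standard error 0.12, adjusted p = 0.0361) and lies on chromosome 8. Foxm1, named here after its values were seen, averaged 17.9 ± 3.36 FPKM in double KO, 19.7 ± 1.63 FPKM in Taz KO and 15.97 ± 0.530 FPKM in control libraries, at 0.14 (standard error 0.13, adjusted p = 0.455) against control. In the anaphase-promoting complex and its regulators, 3 of 15 fell, against the same 12.9%, namely the subunit genes Anapc13, -0.64 (standard error 0.19, adjusted p = 0.0364), and Anapc11, -0.46 (standard error 0.14, adjusted p = 0.0417), and the conjugating enzyme Ube2s, -0.34 (standard error 0.10, adjusted p = 0.0427). Of 19 kinases and phosphatases of mitotic entry and exit, 1 rose and 1 fell, smaller shares than the 12.4% and 12.9% of all tested genes. The phosphatase gene Cdc14a rose, at 2.01, 3.06 and 3.22 FPKM in double KO against 0.457, 0.878 and 0.715 FPKM in Taz KO and 0.462, 0.653 and 0.686 FPKM in control libraries, with 1.55 (standard error 0.21, adjusted p = 0.00148) against control. Ppp1cc, a catalytic subunit of protein phosphatase 1, fell at -0.39 (standard error 0.0790, adjusted p = 0.0087). None of 11 condensin and cohesin-protection genes passed the test against control, where 25.3% of all tested genes did in either direction. Under the block 5 of them fell, against 28.1% of all tested genes. Ncapd2 was at -0.16 (standard error 0.0639, adjusted p = 0.0965, blocked 0.021). Of 21 further spindle, motor and cytokinesis genes 1 fell, against 12.9% of all tested genes, namely Spag5 at -0.27 (standard error 0.0695, adjusted p = 0.0224).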

How the data were processed

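RNA-seq of 9 mouse embryonic stem cell libraries was analysed, 3 per group. The deposited table holds FPKM per gene. TopHat2 2.1.1, HTSeq 0.6.1, DESeq2 and mm10 are named, without roles, in the submitters' processing notes; how strand and multi-mapping reads were handled is not given in the sources used here. Each FPKM value is a whole multiple, within 0.001, of what 1 read is worth for that gene and library, so relative reads were recovered, and the columns are scaled by median-of-ratios size factors.

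Genes with a mean of at least 1 FPKM over all libraries (11674 of 38940) were fitted with limma 3.58.1 (R 4.3.3) on log2(FPKM + 0.5), which understates changes of low genes, with 1 mean per group over all 9 libraries and Benjamini-Hochberg adjustment over all tested genes. The fit was tested on simulated data in which libraries varied independently. That simulation does not speak to deviations shared by libraries of the same number. Libraries of the same number deviated together (correlations of 0.192 to 0.711 over 9 pairs, and -0.688 to 0.394 over the 18 pairs of different number), so the fit with replicate number as a block is given where it changes a call.

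Other settings were the pseudocount, the filter, an equal sum of FPKM, quantile normalization, only the groups compared, voom on recovered reads and each library left out. The 43 genes and all lists were chosen with earlier results of these data known. Values per library are given for genes with an adjusted p under 0.05 in any comparison and for 10 textbook G2/M genes, and up to 3 genes of smallest p are named from each other list. Outside this rule, values per library are also given for Ndc80, Nuf2, Kif20a and Dlgap5. Promoters are RefSeq windows on GRCm38.p6, and gene positions and exon lengths come from the GENCODE M21 annotation.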

Additional observations from a re-analysis of the deposited data

How the results depend on the processing

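The direction of the medians of the 43 genes held in double KO against control and in double KO against Taz KO under every setting tried, and no called gene reversed. The fit with replicate number as a block raised the calls most, giving 32 falls and 3 rises of the 43 in double KO against control (6112 genes called of all tested, against 2948 without the block), 32 falls and 2 rises against Taz KO (4947 against 1620), and 3 rises in Taz KO against control (1381 against 150). With an equal sum of FPKM the rises were 4, 1 and 1 in double KO against control, Taz KO against control and double KO against Taz KO. Over all genes this scaling called 3266, 216 and 1688, and quantile normalization 3252, 213 and 1762, in the same order. Quantile normalization gave 3 rises of the 43 in double KO against control and 1 against Taz KO. Fitting only the groups compared gave 2 falls of the 43 and 635 calls over all genes in double KO against Taz KO, and 88 calls over all genes in Taz KO against control. No filter on low values gave 5 falls in double KO against Taz KO. Without chromosomes 6, 8, 14 and Y, a setting chosen after seeing the data, Taz KO against control had 64 calls over all genes. Leaving out each library in turn gave 4 to 17 falls and 1 rise in double KO against control, 1 to 23 falls and 0 rises against Taz KO, and 0 falls and 0 rises in Taz KO against control. Over all genes these fits called 1510 to 3578, 483 to 2646 and 11 to 237, and the medians of the 43 lay between -0.31 and -0.16, between -0.35 and -0.21, and between -0.03 and 0.13, in the same order of comparisons. Other signs that changed with scaling were those of Plk4, Prc1 and Anln in double KO against control, Kif20a and Kif20b in Taz KO against control and Incenp in double KO against Taz KO. The cause of these changes was not tested. The lowest count was 377 reads, for Cdc25b in 1 library, and the precision of the least abundant genes is limited by counting as well as by 3 libraries per group.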

Other observations

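Genes of DNA replication and S phase, 24 in a further list, had a median log2 fold change of -0.28 in double KO against control, with 21 of 24 below 0. Of these 5 fell and none rose, where 12.9% of all tested genes were lower and 12.4% higher. Under the replicate block 15 fell and 1 rose, against 28.1% and 24.2%. After quantile normalization 5 fell and 3 rose, with a median of -0.14 and 16 of 24 below 0. Pola1, the catalytic subunit of DNA polymerase alpha, was at 21.1, 20.3 and 19.03 FPKM in double KO, 26.2, 26.9 and 25.7 FPKM in Taz KO and 25.3, 24.8 and 26.3 FPKM in control libraries. Double KO held the 3 lowest values. On the log2 scale the change against control was -0.33 (standard error 0.0670, adjusted p = 0.00839), and against Taz KO it was -0.38 (standard error 0.0670, adjusted p = 0.01). Mcm4, a subunit of the replicative helicase, was at -0.31 (standard error 0.0673, adjusted p = 0.0113) and Gins2, which activates that helicase, at -0.39 (standard error 0.11, adjusted p = 0.0297) against control. In Taz KO against control none of the 24 passed the test, with a median of 0.06, and 4 rose under the block (7.78% of all genes). In that comparison 1 rose with an equal sum of FPKM and 2 after quantile normalization. In double KO against Taz KO 4 fell and none rose, against 7.45% and 6.42% of all tested genes, with 20 falls under the block (25.6% of all genes). All 24 were below 0, and 20 after quantile normalization.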
